A study of Mus musculus with 27 samples.

Results

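The genes described here were 36 imprinted genes of the mouse, grouped into 17 imprinted clusters or single loci, and they were chosen by name as known imprinted genes. The rule uses no measured value, although the choice was made with earlier results of these data known. Each gene was given the regions of the deposited merged list of H3K4 methylation that lay in its body or within 5 kb of a transcription start site (TSS) annotated in GENCODE vM1 on mouse assembly NCBIM37 (mm9). The annotation holds 35 of the 36 genes, and these 35 received 408 of the 358833 merged regions. The remaining gene, *Kcnq1ot1*, is given separately. To determine where H3K4 methylation depends on the methyltransferase KMT2D in the developing heart, the study compared hearts of stage E11.5 (embryonic day) from C57BL/6 mice. Control hearts were *Tnnt2::Cre; Kmt2d fl/+; mTmG/+* and mutant hearts were *Tnnt2::Cre; Kmt2d fl/fl; mTmG/+*, in 3 pools of 30 hearts per genotype. Both genotypes therefore carried Cre recombinase, the mTmG Cre reporter and at least 1 floxed copy of *Kmt2d*. Cre made from the *Tnnt2* promoter acts in heart muscle cells, so that the pooled whole hearts still held cells in which *Kmt2d* was not deleted.

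Imprinted genes are expressed mainly from the copy inherited from the mother or mainly from the copy inherited from the father. The choice is set by DNA methylation laid down in the egg or the sperm at imprinting control regions, and is kept in the embryo by the zinc finger protein ZFP57 and its partners, which bind the methylated copy. H3K4me2 and H3K4me3 (di- and trimethylation) are generally found on the unmethylated copy of such a region, because these marks and DNA methylation of CpG sites largely exclude each other. Several of the genes control fetal growth, and the imprint of some holds only in certain tissues, such as that of *Ube3a* in neurons and that of *Ddc* in the embryonic heart. The expressed copy named below is this general knowledge, and reads of the maternal and paternal copies cannot be told apart in the lists.

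The sequences shown here are those in which imprinting factors are known to act or which lie at the starts whose regions were called. Upstream of *H19*, CTCF binds the maternal copy of a control region. The inner part of its consensus there, CGNGGNGGC, was sought on both strands and occurred 3 times within 5 kb upstream of the *H19* start, at 2168, 2623 and 3893 bp from it. All 3 matches, in capitals below, lay inside a single merged region. They are given on the minus strand of NCBIM37, at chr7:149766206-149766234, chr7:149766661-149766689 and chr7:149767931-149767959.
H19 match at 2168 bp: gacgatgccgCGTGGTGGCagtacaatac
H19 match at 2623 bp: gatgctaccgCGCGGTGGCagcatactcc
H19 match at 3893 bp: ggagttgccgCGTGGTGGCagcaaaatcg

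ZFP57 recognises the hexamer TGCCGC when its CpG is methylated. Windows of 150 bases from the regions of 4 genes with many hexamers follow, with the hexamer in capitals on either strand (TGCCGC or GCGGCA). The *Snrpn* window lies on the minus strand at chr7:67149203-67149352, the *Mest* window on the plus strand at chr6:30688073-30688222, the *Gnas* window on the plus strand at chr2:174121353-174121502 and the *Igf2r* window on the minus strand at chr17:12934570-12934719. The first and second come from regions in neither decreased list, and the third and the fourth from H3K4me2-decreased regions.
Snrpn window: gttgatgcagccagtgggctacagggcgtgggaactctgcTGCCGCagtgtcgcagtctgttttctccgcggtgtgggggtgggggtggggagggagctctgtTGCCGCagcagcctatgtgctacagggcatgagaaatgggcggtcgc
Mest window: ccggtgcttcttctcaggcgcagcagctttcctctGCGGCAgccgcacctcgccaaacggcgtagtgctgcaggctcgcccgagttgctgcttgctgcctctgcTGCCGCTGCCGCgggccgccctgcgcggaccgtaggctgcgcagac
Gnas window: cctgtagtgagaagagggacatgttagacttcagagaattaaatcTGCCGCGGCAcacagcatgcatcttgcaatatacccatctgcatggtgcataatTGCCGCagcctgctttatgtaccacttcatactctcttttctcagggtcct
Igf2r window: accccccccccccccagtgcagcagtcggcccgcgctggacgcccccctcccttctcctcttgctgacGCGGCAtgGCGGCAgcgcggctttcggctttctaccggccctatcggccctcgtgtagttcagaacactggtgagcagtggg

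The starts themselves differed in CpG sites. In the 120 bases around a start, *Ube3a* had 17 CpG sites, whereas the *Igf2* start nearest to the gene start among those inside its region had 0. The region at the *Ube3a* start and that at the *Igf2* start were both H3K4me2-decreased. The windows below have CpG sites in capitals and read in the direction of transcription, from chr7:66484062-66484181 on the plus strand for *Ube3a*, and from chr7:149847715-149847834 on the minus strand for *Igf2*.
Ube3a start: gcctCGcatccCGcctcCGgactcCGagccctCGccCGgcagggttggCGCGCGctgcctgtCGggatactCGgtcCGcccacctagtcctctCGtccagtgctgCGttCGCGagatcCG
Igf2 start: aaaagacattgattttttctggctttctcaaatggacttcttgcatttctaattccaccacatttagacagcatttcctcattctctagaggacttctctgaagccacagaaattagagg

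Every one of the 35 annotated genes had at least 1 merged region, and 32 (91.4%, 95% Wilson interval 77.6% to 97.0%) had a TSS inside a region. Of 22367 annotated coding genes, 15752 (70.4%) had a TSS inside a region. The imprinted genes without a marked start were *Slc22a18*, an organic cation transporter gene, *Usp29*, a gene of the deubiquitinase family, and the noncoding *Mirg*. The annotated *Usp29* entry spans 2610 bp with 1 TSS. Starts outside the annotation were not sought, so the *Usp29* values hold for this entry only. The total width of regions per gene ranged from 320 bp at *Usp29* to 119980 bp at *Ppp1r9a*, with a median of 8940 bp. Over all coding genes, those without a region included, the median was 5640 bp. The median number of regions was 6 for the imprinted genes and 4 for coding genes, and the median width of the widest region at a start was 4500 bp and 3720 bp. The merged list joins peaks of H3K4me1, H3K4me2 and H3K4me3 and does not say which mark a region carries. All 8 heart muscle marker genes (*Tnnt2*, *Myh6*, *Myh7*, *Nkx2-5*, *Gata4*, *Tbx5*, *Actc1* and *Nppa*) had a TSS inside a region. So did 70.4% of all coding genes, and no markers of another tissue were counted, so this does not identify the tissue.

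An H3K4me2-decreased region, that is a merged region that the authors called lower in mutant than in control hearts, occurred at 8 of the 35 imprinted genes (22.9%, 95% Wilson interval 12.1% to 39.0%). They were *Igf2*, *Osbpl5*, *Igf2r*, *Copg2*, *Ddc*, *Ube3a*, *Gnas* and *Trappc9*. Among all coding genes the share was 25.7%, so that the imprinted genes lay near the background. The called region held a TSS at 7 of the 8, all but *Osbpl5*. At *Ddc* it lay over the 3′ part and also held the start of the neighbouring *Fignl1*. With only regions over no other coding gene body, 6 of 35 imprinted genes were called (17.1%). Coding genes of like region width would then give 9.52. Among genes with a marked start, the region at the start was H3K4me2-decreased in 21.9% of imprinted genes and in 29.2% of coding genes. An H3K4me1-decreased region occurred at 3 imprinted genes (8.57%, interval 2.96% to 22.4%), *Slc22a18*, *Osbpl5* and *Trappc9*, against 6.34% of coding genes. Without the *Kcnq1ot1* cluster this count was 1 of 30 (3.33%). None of the H3K4me1-decreased regions held a start of an imprinted gene (0 of 35, upper Wilson bound 9.89%), against 0.908% of all coding genes. Among genes with a marked start these counts were 0 of 32 and 1.29%. The lists hold coordinates and no read counts or replicate values, so no difference between genotypes could be set against the spread between pools and no test was made. The depth behind a region is unknown, regions in neither list are not shown to be unaltered, and in whole hearts fewer cells of a type cannot be told apart from less methylation per cell.

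**Figure D1:**
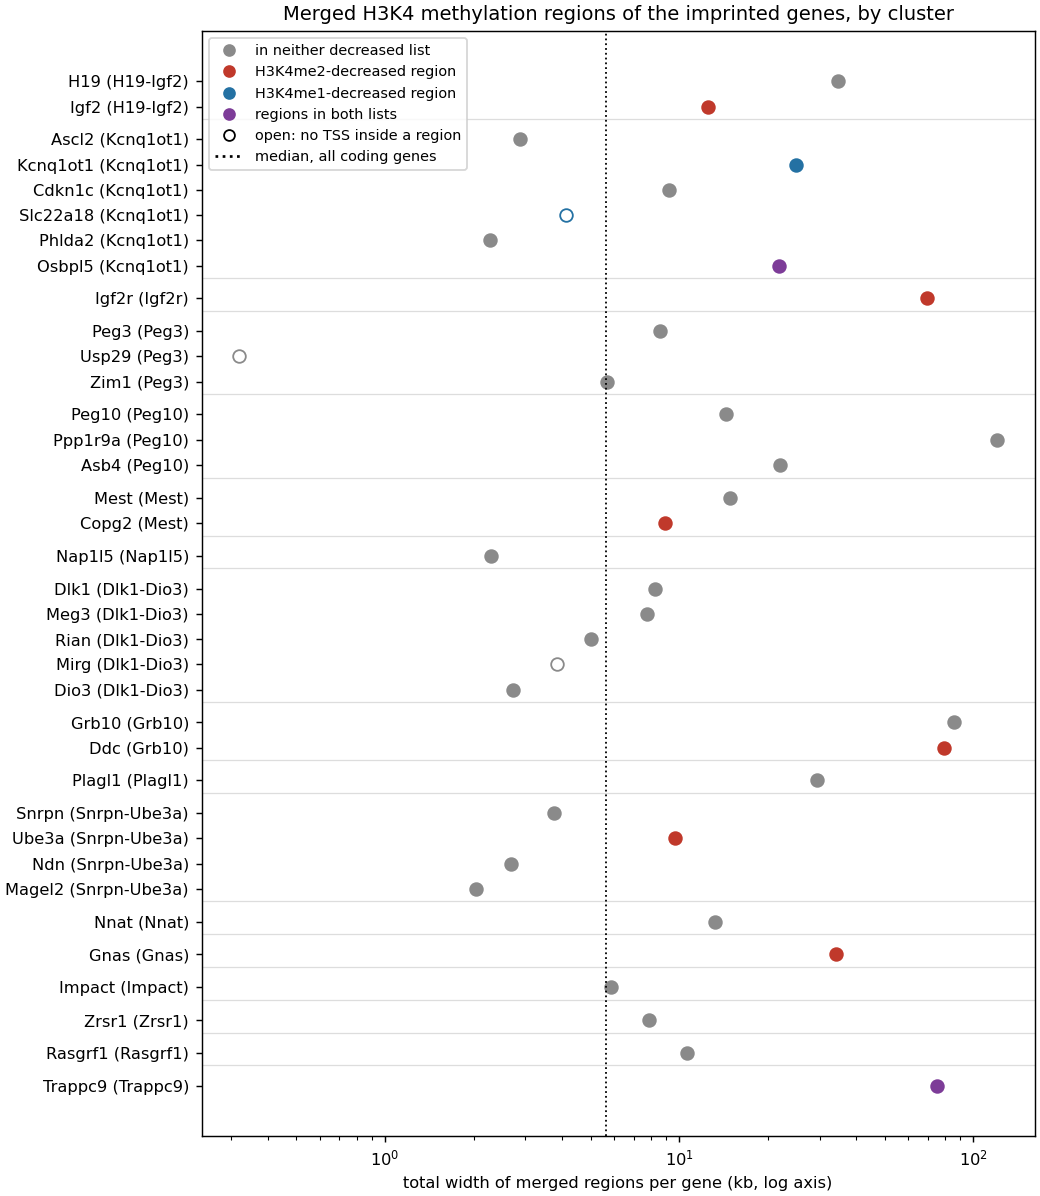
Total width of merged regions of each of the 36 imprinted genes (kb, log axis), ordered by cluster (named in parentheses), with colour for regions in a decreased list and open circles for genes without a TSS inside a region. Genes with a called region run from 4120 bp (*Slc22a18*) to 79560 bp (*Ddc*) within a range of 320 to 119980 bp, and all genes with an H3K4me2-decreased region lie to the right of the dotted median of all coding genes (5640 bp). *Kcnq1ot1* is counted from regions within 5 kb of its start only.

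The share of coding genes with an H3K4me2-decreased region increased with the total width of their regions, from 0.956% in the lowest to 53.4% in the highest of 10 equal width classes. The imprinted genes were therefore compared with other coding genes of the same class. Coding genes of like width would give 12.1 genes with an H3K4me2-decreased region (34.7%), where 8 were found, a difference of -11.8 percentage points. The Wilson interval of the imprinted genes' share included this value. For H3K4me1 the expected number was 3.81 (10.9%) against 3 found, a difference of -2.32 points. In the 6 lowest classes, up to 8380 bp in all, lay 16 imprinted genes with no H3K4me2-decreased region (upper Wilson bound 19.4%), where coding genes of like width would give 3.56 (22.2%). In the 4 highest classes, 8 of 19 imprinted genes were called (42.1%), where 8.58 would be given (45.2%). This division of the classes was chosen after the values were seen, and genes of a cluster are not independent of each other.

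Of genes known as maternally expressed, 5 of 16 had an H3K4me2-decreased region (31.3%, interval 14.2% to 55.6%). Of those known as paternally expressed, 2 of 17 had one (11.8%, interval 3.29% to 34.3%). The intervals overlapped widely. Over all coding genes the share was 25.7%. The expressed copy was not measured in these hearts, and for some genes, such as *Ube3a*, the imprint holds only in certain tissues. The 3 annotated genes with an H3K4me1-decreased region were of the maternal group (18.8% of 16, against 6.34% of coding genes), while *Kcnq1ot1*, which is not counted here and is paternally expressed, had such a region as well. *Gnas* and *Grb10*, whose expressed copy depends on the transcript or the tissue, had 3 and 0 called regions. None of the 4 annotated noncoding genes (*H19*, *Meg3*, *Rian* and *Mirg*) had a called region.

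**Figure D2:**
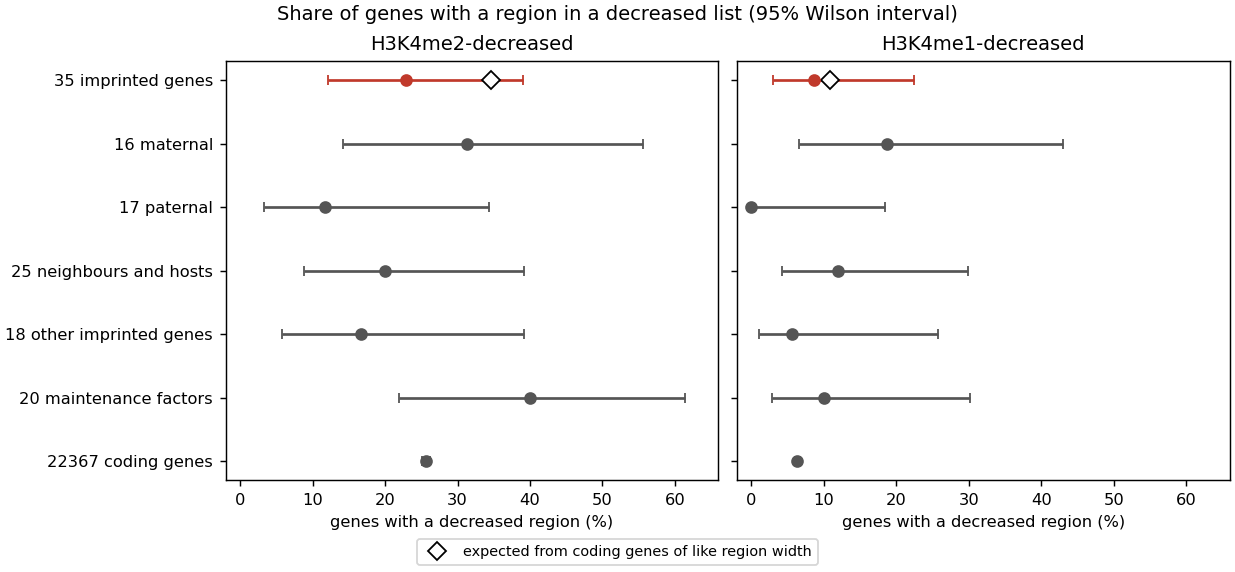
Percentage of genes with an H3K4me2-decreased region (left) and an H3K4me1-decreased region (right), with 95% Wilson intervals, for the imprinted genes, their maternally and paternally expressed groups, 3 other gene lists and all coding genes. The diamond is the share given by coding genes of like region width, 34.7% and 10.9%, and it lies inside the interval of the imprinted genes in both panels.

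By locus, 8 of the 17 clusters held a called region. Of the 8 clusters with more than 1 annotated gene, 5 held a called gene and in none were all annotated genes called. At the *H19-Igf2* cluster on distal chromosome 7, the growth factor gene *Igf2* had an H3K4me2-decreased region of 12220 bp (chr7:149839706-149851925), which held 8 of its 9 annotated starts but not the most upstream one, and the antisense *Igf2as*. *H19*, the maternally expressed noncoding RNA gene of the same cluster, lay in a 34780 bp region (chr7:149733246-149768025) that was in neither list. That region ended 3977 bp upstream of the *H19* start, beyond the 3 sequence matches printed above. It also held the starts of *Mir675* and *Nctc1*. The regions of the adjoining genes *Igf2* and *H19* thus differed in their calls, but 1 call covers all the starts inside a region.

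In the *Kcnq1ot1* cluster next to it, the start regions of *Cdkn1c*, which encodes a cyclin-dependent kinase inhibitor (9220 bp), of *Phlda2*, which limits placental growth (2160 bp), and of *Ascl2*, a transcription factor gene of the placenta (2780 bp), were in neither list. The called regions of its annotated genes were narrow. *Osbpl5*, of the oxysterol-binding protein-like family, had an intronic region of 100 bp in both lists (chr7:150930786-150930885), while its start regions of 4220 bp and 1980 bp were in neither. *Slc22a18* had an intronic region of 80 bp that was H3K4me1-decreased (chr7:150673466-150673545).

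*Kcnq1ot1* itself, the paternally expressed antisense RNA that silences the cluster, has no entry in GENCODE vM1. Its start was placed at position 150482452 of chromosome 7, minus strand, by the only exact match of its 300-base promoter sequence from RefSeq (GRCm38.p6) to NCBIM37. A region of 17420 bp held this start (chr7:150465946-150483365) and was in neither list. Upstream of it, 2974 bp from the start, began a region of 7360 bp that was H3K4me1-decreased (chr7:150485426-150492785). Both lie inside *Kcnq1*, the potassium channel gene that hosts *Kcnq1ot1*. *Kcnq1* had 75 regions of 147180 bp in all, of which 5 were H3K4me1-decreased, the widest of 7680 bp, and 0 were H3K4me2-decreased. With *Kcnq1ot1* counted, 4 of 36 imprinted genes (11.1%) had an H3K4me1-decreased region.

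The receptor gene *Igf2r*, whose product removes IGF2 from the cell surface, had the widest region of all imprinted genes. It spanned 41120 bp (chr17:12922626-12963745), was H3K4me2-decreased, and held the start of *Igf2r* with 3 of its 4 annotated starts as well as the start of *Airn*, the paternally expressed antisense RNA that silences it. An adjoining exonic region of 15120 bp was in neither list. Loss of H3K4me2 at the *Igf2r* start and at the *Airn* start cannot be told apart, since 1 call covers both.

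*Gnas*, which encodes the stimulatory G protein alpha subunit and several alternative products, had the most regions at starts that were H3K4me2-decreased. The call covered 10600 bp with 1 *Gnas* start and that of the antisense *Nespas* (chr2:174115886-174126485), 13760 bp with 10 starts (chr2:174151526-174165285) and 4860 bp with 2 starts (chr2:174165966-174170825). In all, 29220 of its 34000 bp lay in called regions. The region at the most upstream start, from which the maternally expressed *Nesp* transcript is known to begin, spanned 3080 bp and was in neither list.

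**Figure D3:**
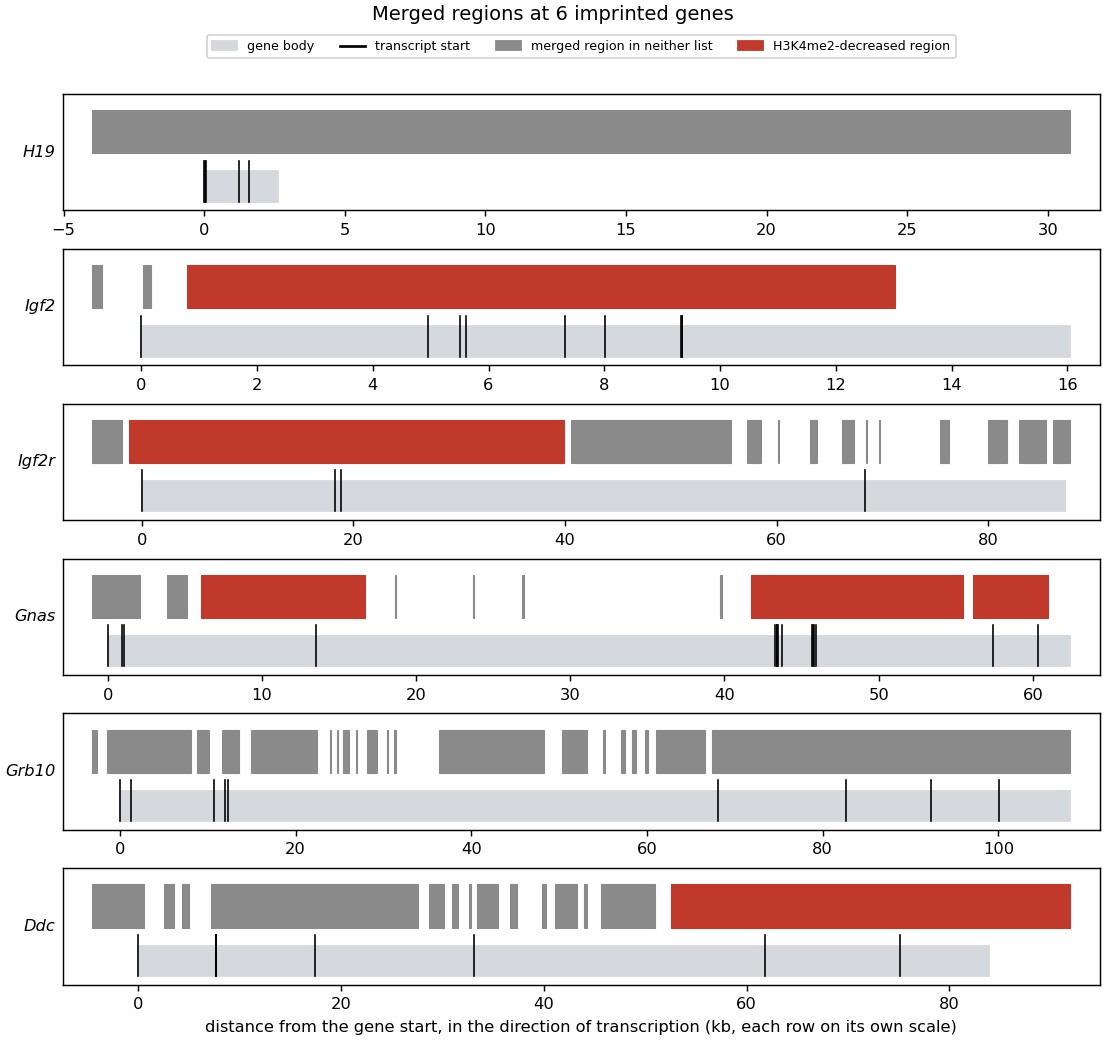
Merged regions at *H19*, *Igf2*, *Igf2r*, *Gnas*, *Grb10* and *Ddc* as upper bars against distance from the gene start in the direction of transcription (kb, own scale per row), with the gene body as the lower bar and annotated transcript starts as black lines. Red bars are the H3K4me2-decreased regions, from 4860 bp at *Gnas* to 41120 bp at *Igf2r*, while every region at *H19* and *Grb10* is grey.

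*Grb10*, an adaptor that dampens insulin and IGF receptor signalling, and *Ddc*, the dopa decarboxylase gene beside it, carried similar amounts of marked sequence, 85760 bp and 79560 bp. *Ddc* had an H3K4me2-decreased region of 39400 bp (chr11:11706126-11745525) over its 3′ part, which held 2 of its 8 annotated starts and the start of the neighbouring *Fignl1*. The 5100 bp region with the *Ddc* gene start and a 20400 bp region with 4 further starts were in neither list. All 20 *Grb10* regions were in neither list, among them regions of 40800, 11940 and 9460 bp. Both genes lie in the highest width class, in which 53.4% of other coding genes were called.

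*Ube3a*, a ubiquitin ligase gene expressed from the maternal copy in neurons, had an H3K4me2-decreased region of 5900 bp over its only annotated start (chr7:66482466-66488365). The paternally expressed genes of the same cluster, *Snrpn*, which encodes a small nuclear ribonucleoprotein, and *Ndn* and *Magel2* of the MAGE family, had start regions of 2340, 1780 and 2040 bp in neither list. In the *Mest* cluster the coatomer gene *Copg2* had an H3K4me2-decreased region of 2820 bp over all 7 of its starts (chr6:30844766-30847585), which also held the start of 4930412F09Rik. The 9200 bp region with 7 of the 11 *Mest* starts was in neither list.

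*Trappc9*, which encodes a subunit of a vesicle tethering complex, had 89 regions, the largest number of any imprinted gene, over a gene of 471584 bp. Its start region of 3040 bp (chr15:72890166-72893205) and intronic regions of 820 bp and 140 bp were H3K4me2-decreased, and a region of 740 bp over an exon was H3K4me1-decreased (chr15:72682286-72683025). A second start region of 4780 bp was in neither list. By contrast *Ppp1r9a*, the neurabin gene, had 70 regions and more marked sequence than *Trappc9* and no called region.

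The remaining 9 loci held no called region. In the *Dlk1-Dio3* cluster, *Dlk1*, a membrane protein gene related to Notch ligands, had 4 regions of 8280 bp, *Dio3*, which inactivates thyroid hormone, 3 regions of 2720 bp, and the noncoding *Meg3*, *Rian* and *Mirg* 9, 12 and 6 regions of 7780, 5000 and 3840 bp. The *Peg3* cluster held the zinc finger genes *Peg3* (8600 bp) and *Zim1* (5700 bp) beside *Usp29*. The *Peg10* cluster held the retrotransposon-derived *Peg10*, whose 13240 bp start region also holds the start of *Sgce*, and *Asb4*, with its widest region at 8020 bp, beside *Ppp1r9a*. The zinc finger gene *Plagl1* had 11 regions of 29320 bp, the widest being 9040 bp at the start and 8160 bp over an exon. The other loci were *Nap1l5* (2300 bp), *Nnat* (13200 bp), *Impact* (5840 bp), *Zrsr1* (7880 bp) and *Rasgrf1* (10660 bp).

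Taken as regions, 12 of the 408 were H3K4me2-decreased (2.94%, against 1.87% of all merged regions), 3 were H3K4me1-decreased (0.735%, against 0.761%) and 1 was in both lists. The regions were wider than most, with a median of 560 bp against 320 bp. At starts lay 47 of them, of which 9 were H3K4me2-decreased (19.1%), and of the regions at starts of other coding genes 22.6% were. Of the start regions of at least 8000 bp, 5 of 14 were called (35.7%) and of those of other coding genes 39.4%. From 2000 to under 4000 bp the values were 2 of 15 (13.3%) and 23.5%, and from 4000 to under 8000 bp 2 of 10 (20%) and 32.2%. From 1000 to under 2000 bp they were 0 of 7 (0%) and 7.74%. The called start regions had a median width of 10600 bp and the others of 3250 bp, with 2.83 and 2.57 CpG sites per 100 bases. At starts of other coding genes the called regions were also wider, 4420 bp against 2860 bp, with 2.89 and 2.52 CpG sites.

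The regions at imprinted starts often held many ZFP57 hexamers, counted as TGCCGC on both strands with overlapping matches allowed. Those of at least 8000 bp had 3 or more hexamers in 12 of 14 cases (85.7%), against 46.6% for other coding starts. This class has no upper limit, so width was not held equal in it, and the imprinted regions reached 41120 bp. At other coding starts the median count was 2 at a median width of 9260 bp and 4 at 20120 bp. From 2000 to under 4000 bp, 5 of 15 imprinted start regions had 3 or more hexamers (33.3%), against 10.7%. From 4000 to under 8000 bp the shares were 20% and 23.9%. From 1000 to under 2000 bp they were 28.6% (2 of 7) and 3.97%. The hexamer itself holds a CpG site. From 2000 to under 4000 bp the median CpG sites per 100 bases were 4.51 at imprinted and 3.04 at other coding starts. From 4000 to under 8000 bp these medians were 1.74 and 2.64, and from 8000 bp 2.18 and 2.07. From 1000 to under 2000 bp they were 3.88 and 2.77. Whether CpG content accounts for the hexamer counts was not tested. The *Snrpn* region held 10 hexamers in 2340 bp, a count reached by 0.0482% of regions at coding starts in its width class. The *Mest* region of 9200 bp and the called *Gnas* region of 10600 bp each held 14 (0.379% of their class). *Nnat* held 8 (0.161%), *Peg3* 8 (0.51%) and *Nap1l5* 5 (0.313%). Among these hexamer-rich regions the *Gnas* region was called and the others were not. The called *Igf2r* region of 41120 bp held 12 (0.704% of the class of at least 8000 bp). In other coding start regions with a median width of 20120 bp the 99th percentile was 13.8 hexamers, above the *Igf2r* count. An intronic *Trappc9* region of 4180 bp held 6 hexamers (2.61%) and was in neither list. For CGNGGNGGC, the *H19* region of 34780 bp held 6 matches, a count reached by 6.72% of the class of at least 8000 bp. The *Igf2* region of 12220 bp also held 6, and a *Gnas* region of 13760 bp held 7 (4.06%). From 2000 to under 4000 bp, *Ppp1r9a* held 7 (0.177%) and *Dio3* 5 (1.16%). Of imprinted start regions of at least 8000 bp, 8 of 14 had 3 or more, against 32.02% for other coding starts. From 2000 to under 4000 bp the values were 4 of 15 and 7.649%. They were 0 of 10 and 16.97% from 4000 to under 8000 bp, and 0 of 7 and 2.579% from 1000 to under 2000 bp. A match is a description of the letters and does not show that a protein was bound.

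**Figure D4:**
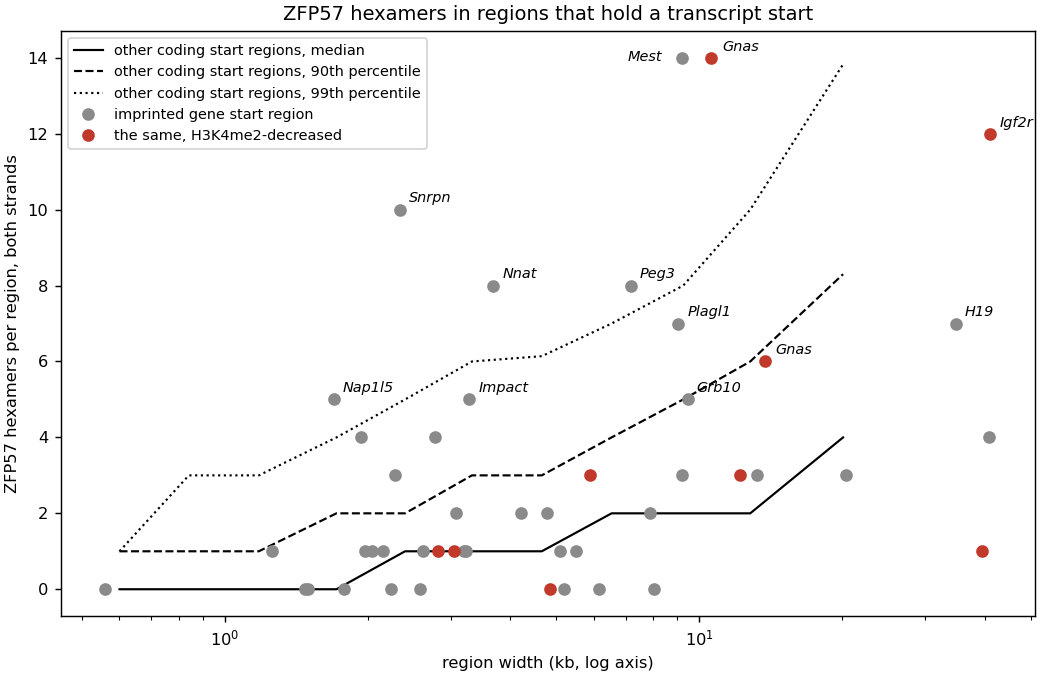
Number of ZFP57 hexamers on both strands in each merged region that holds a start of an imprinted gene, against region width (kb, log axis). Lines give the median, 90th and 99th percentile of regions at other coding starts, and red points are H3K4me2-decreased. The regions of *Snrpn*, *Nnat*, *Nap1l5*, *Peg3*, *Mest* and 1 of *Gnas* lie above the 99th percentile line, with 10, 8, 5, 8, 14 and 14 hexamers.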

How the data were processed

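ChIP-Seq of H3K4me1, H3K4me2 and H3K4me3 was performed by the authors on E11.5 hearts. Per the submitters' processing notes, CASAVA 1.8.2, FastQC, Bowtie, Bowtie2 and SAMtools were used with build mm9. The peak caller and the test were not given in the sources used here. The deposited lists hold region coordinates only (chromosome, start and end), pooled over replicates: all merged regions, and those the authors called decreased for H3K4me1 or H3K4me2 at a false discovery rate that the study's methods give as under 0.1. The deposited H3K4me2-decreased list holds 6699 regions, which differs from the number in the study's text, so whether that threshold made this list is not certain. Starts were converted to 1-based positions.

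Regions were assigned to genes by an overlap of at least 1 bp with the body or 5 kb around any TSS, and called by identical coordinates (Python 3.11.15, numpy 2.4.6, pysam 0.24.0). Shares have 95% Wilson intervals (scipy 1.17.1), which treat genes and regions as independent. Coding genes were divided into 10 equal classes of total region width. The assignment, the width comparison and the sequence counts were tested on simulated data. Every gene is accounted for, with full values for called genes, genes with a region of at least 8 kb and genes without a marked start. Genes, lists and tests were chosen with earlier results of these data known. ChIP-Exo data were not used here. Alternatives changed the gene window, the minimum region width, the starts, the genes and the width classes.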

Additional observations from a re-analysis of the deposited data

How the results depend on the processing

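Of 192 values from alternative settings, 183 stayed inside the interval of the reported value and 9 moved outside it. The cause was not tested beyond what each setting leaves out. A share cannot change sign, and the differences from genes of like width stayed negative in all settings, although their intervals included 0. With regions that hold a TSS only, 0% of imprinted genes and 0% of their regions were H3K4me1-decreased, and 19.1% of their regions were H3K4me2-decreased. With regions of at least 1000 bp, these values were 0%, 0% and 6%, and the H3K4me1 difference from genes of like width was -8.95 points. With regions of at least 500 bp, 2.86% of the genes were H3K4me1-decreased. Leaving out each cluster in turn, that difference ranged from -8.60 (without the *Kcnq1ot1* cluster) to -0.429 points. The H3K4me2 difference stayed between -13.9 and -8.66 points in all settings. Counting *Kcnq1ot1*, added after seeing the data, gave 22.2%, 11.1% and 91.7% for H3K4me2, H3K4me1 and a marked start. No paired analysis was possible because the lists carry no replicate values. With so few called genes, the intervals span most of the differences given, and depth is unknown.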

Other observations

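Genes whose products set, keep or erase DNA methylation imprints were counted in the same way, and no difference from the imprinted genes was tested. Of 20 such genes, 8 had an H3K4me2-decreased region (40%, 95% Wilson interval 21.9% to 61.3%), against 25.7% of all coding genes, and at each of the 8 it held a TSS. Their regions were wider, with a median total of 9310 bp against 5640 bp, and they were not compared with genes of like width. They were *Trim28* (5200 bp), the corepressor bound by ZFP57, *Ctcf* (6220 bp), the histone demethylase genes *Kdm1a* (3320 bp) and *Kdm1b* (2920 bp), *Arid4a* (8980 bp), *Arid4b* (7180 bp), and the methylcytosine dioxygenase genes *Tet1* (3520 bp) and *Tet3* (23600 bp), each with the width of the widest called region. An H3K4me1-decreased region occurred at *Tet3* (3900 bp) and at *Dnmt3a* (11520 bp), a DNA methyltransferase gene with 3 such regions (10% of the 20 genes, against 6.34% of coding genes).

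Among 18 other imprinted genes, 3 had an H3K4me2-decreased region (16.7%, against 25.7% of coding genes): *Sfmbt2* (5620 bp), *Slc38a4* (3600 bp) and *Pon2* (13320 bp). The *Pon2* region was in both lists and held a start, and *Pon2* was the only H3K4me1-decreased gene of the 18 (5.56%, against 6.34%). Among 25 annotated neighbours and hosts of the imprinted genes, 5 had an H3K4me2-decreased region (20%, against the same 25.7%): *Commd1* (4320 bp), which hosts *Zrsr1*, *Tspan32* (8120 bp), *Slc22a2* (80 bp), *Airn* (the 41120 bp region shared with *Igf2r*) and *Atp10a* (3520 bp). The 3 with an H3K4me1-decreased region (12%, against 6.34%) were *Kcnq1*, *Slc22a2* (the same 80 bp) and *Th* (3780 bp), the tyrosine hydroxylase gene, at its start. A further neighbour, *Zim3*, was not analysed here.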
